A study of Homo sapiens with 4 samples.

Results

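Peaks of IGF2BP3-bound RNA were examined in a stretch of mRNA that few peaks occupy, the coding sequence (CDS) carried by long last exons. A peak was counted when it was at most 1000 bp wide, its summit lay on exactly 1 MANE Select mRNA of GENCODE release 44 (the agreed reference transcript of a gene), and the summit was in the CDS, more than 200 nt from the stop codon, in a last exon of at least 1000 nt. Of the 44622 peaks of replicate 1, 847 met these conditions (1.90%), and of the 42723 peaks of replicate 2, 759 did (1.78%), a mean of 803 ± 62.2 peaks (SD, n = 2). The rule used positions only and no measured value. Below, these are called last-exon CDS peaks.

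All 4 samples came from OE-19 cells, a long-established line derived from an adenocarcinoma of the esophagogastric junction, with no genetic change or drug named, and per the labels the cells were fixed with UV light before lysis, a step that the study's own account of its RIP does not mention. RIP-seq sequences the RNA that is pulled from a lysate together with a protein, here by an antibody to IGF2BP3. Of the samples, 2 were IGF2BP3 RIP replicates, each with its own peak list, and 2 were inputs, whose values were not analysed here. The study calls its replicates biological, the labels do not say whether they came from separate cultures, and with 1 group of 2 lists no test between groups could be made.

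IGF2BP3 is an RNA-binding protein with RRM and KH domains that is known as a reader of N6-methyladenosine (m6A) and as a factor that stabilises mRNAs. The last exon of an mRNA has no splice junction downstream of it, usually carries the stop codon and the whole 3′ UTR, and in some genes also carries most of the reading frame. Genes built in this way include those of C2H2 zinc finger proteins, whose fingers are often coded together in the final exon, large scaffold proteins such as AHNAK2, and genes with a single exon.

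The sequences under the strongest peaks are given first, because the text returns to them. They are read on the mRNA strand, from 50 nt before to 50 nt after the summit in the replicate with the higher fold enrichment, cut at the start of the last exon for CBL, which leaves 76 nt. They are shown for the first 6 genes when genes with a last-exon CDS peak in both replicates are ranked by fold enrichment. Capitals mark DRACH, the sequence context of m6A (A, G or T, then A or G, then AC, then A, C or T). Positions are in hg38.
PABPC3 (chr13:25097166-25097266, plus strand): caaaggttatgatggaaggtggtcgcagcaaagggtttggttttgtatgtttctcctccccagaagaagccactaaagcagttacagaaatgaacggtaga
DYRK1A (chr21:37511998-37512098, plus strand): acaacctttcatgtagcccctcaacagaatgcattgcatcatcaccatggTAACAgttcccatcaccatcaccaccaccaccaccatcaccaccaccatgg
CBL (chr11:119299495-119299570, plus strand): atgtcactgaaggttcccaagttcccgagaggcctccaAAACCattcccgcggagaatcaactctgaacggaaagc
OR2A7 (chr7:144259446-144259546, minus strand): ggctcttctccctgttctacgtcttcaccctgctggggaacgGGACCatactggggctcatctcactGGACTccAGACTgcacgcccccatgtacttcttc
HIPK1 (chr1:113973102-113973202, plus strand): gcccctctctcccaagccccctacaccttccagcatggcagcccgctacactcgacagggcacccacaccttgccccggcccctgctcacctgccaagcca
USF3 (chr3:113655727-113655827, minus strand): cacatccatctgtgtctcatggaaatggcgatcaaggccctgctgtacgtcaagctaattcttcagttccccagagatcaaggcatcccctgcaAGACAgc

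Among these, the windows of PABPC3 and HIPK1 held 0 DRACH matches, DYRK1A, CBL and USF3 held 1 each, and OR2A7 held 3. The DYRK1A window ran into a run of histidine codons. TGGAC, the DNA form of UGGAC, which the study names as its leading motif, occurred 1 time in the 6 windows, in OR2A7, where it overlaps the second DRACH match.

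The values that the authors' peak caller gave to last-exon CDS peaks were modest. Fold enrichment, the ratio of RIP signal to local background at the summit, had a median of 2.84 in both replicates, and the quartiles were 2.52 and 3.27 in replicate 1 and 2.50 and 3.28 in replicate 2. The lowest and highest folds were 1.87 and 8.78 in replicate 1 and 1.82 and 8.72 in replicate 2. The medians over all peaks were 2.92 and 2.90. The largest fold in both replicates belonged to PABPC3.

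After the caller's correction for multiple testing, 32 last-exon CDS peaks of replicate 1 (3.78%) had a q of at most 0.05, beside 9.77% of all its peaks. In replicate 2, 21 did (2.77%), beside 7.47% of all peaks. The share was thus below that of the whole list in both replicates. A q of 1 was assigned to 74.5% and 81.0% of the last-exon CDS peaks, and their −log10 p went down to 2.0003 and 2.04. The lists were therefore not limited at a q of 0.05, the caller's default, and a counted peak need not have passed that limit. CDS peaks in earlier exons of at least 1000 nt had a share of 3.69% and 2.28% at that limit, and CDS peaks in earlier exons under 150 nt had 13.5% and 10.7%, so the share was low in long exons wherever they stood in the mRNA.

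Last-exon CDS peaks were wide. Their median width was 199 bp in replicate 1 and 203 bp in replicate 2, against 115 and 109 bp over all peaks and 82 and 80 bp for CDS peaks in exons under 150 nt. CDS peaks in earlier long exons had medians of 216 and 185 bp. In the last exons, 816 of 847 peaks (96.3%) and 727 of 759 (95.8%) lay wholly inside the exon. Peaks over 1000 bp wide were left out by the rule, and 95 and 61 peaks were lost for that reason alone.

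To set the number of peaks against the length of sequence in which they could fall, summits were counted per kb of CDS on mRNAs with at least 1 summit in the same replicate. Long last exons held 0.801 summits per kb in replicate 1 and 0.766 in replicate 2, a mean of 0.784 ± 0.0245 per kb (SD, n = 2). Earlier exons of at least 1000 nt held 0.586 and 0.559 per kb, a mean of 0.572 ± 0.0191. Both were far below earlier exons from 150 to under 1000 nt, at 2.18 and 2.15 per kb, and below earlier exons under 150 nt, at 3.07 and 3.18 per kb. Each step in this order was larger than the SD between the replicates. The gap between long and shorter earlier exons was wider than the gap between long last and long earlier exons. Exon length here counts UTR as well as CDS. On mRNAs with another summit, last exons with 1000 to 1999 nt of counted CDS held 0.582 and 0.590 per kb. Last exons under 1000 nt held 1.14 and 1.04 per kb, from only 24 and 20 peaks.

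**Figure D1:**
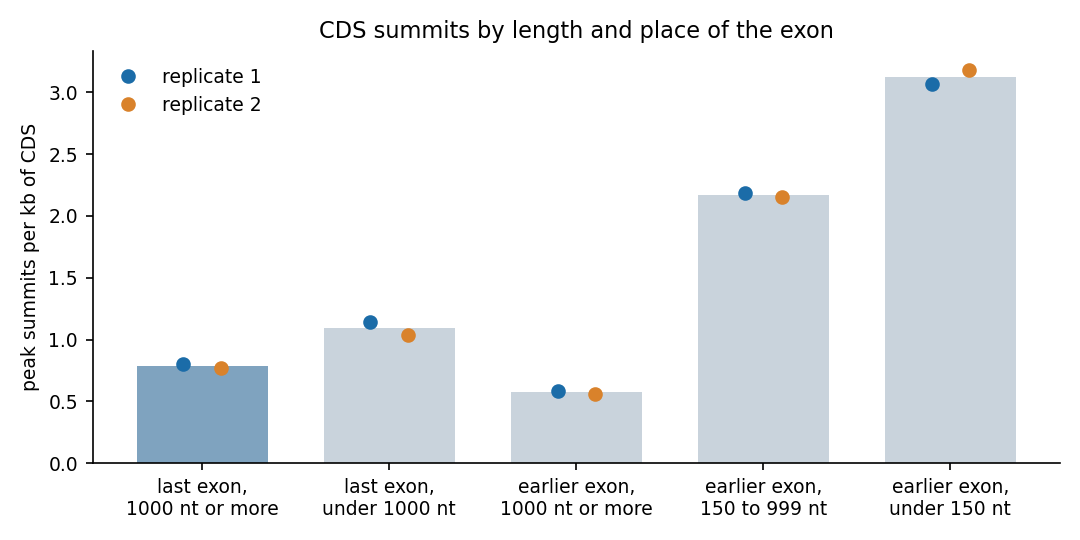
Peak summits per kb of CDS more than 200 nt from the stop codon, by place and whole length of the exon, UTR included. Points are the 2 replicates and bars their means. Long last exons sat at 0.801 and 0.766 per kb, above earlier long exons and below all shorter exons.

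The comparison was repeated within genes. It took genes with at least 500 nt of counted CDS both in a long last exon and in earlier exons, and with a CDS summit in either. In replicate 1, the density was higher in the last exon in 51 of 295 such genes and higher in the earlier exons in 244. In replicate 2, it was higher in the last exon in 37 of 269 and in the earlier exons in 232. Over all of these genes together, the last exons held 0.720 summits per kb against 2.60 in the earlier exons in replicate 1, and 0.729 against 2.62 in replicate 2. The earlier exons here were of all lengths, so this comparison does not separate the place of an exon from its length. Among exons of at least 1000 nt, over all genes, last exons held more summits per kb than earlier ones, as given above. Last exons with 1000 to 1999 nt of counted CDS, however, were below the earlier long exons in replicate 1 and above them in replicate 2. C2H2 zinc finger genes had less of a gap, with 0.836 against 1.37 per kb over 41 genes in replicate 1 and 0.827 against 1.47 over 35 genes in replicate 2.

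Within long last exons, summits were not evenly placed. On mRNAs with more than 1 exon, the density was 0.906 per kb in replicate 1 and 1.04 per kb in replicate 2 over the first 50 nt after the last splice junction. It was 1.78 and 1.45 per kb from 50 to 99 nt, 1.38 and 1.31 per kb from 100 to 199 nt, and 0.761 and 0.851 per kb from 200 to 399 nt. Farther in, from 400 to 799 nt, it was 0.650 and 0.490 per kb, and from 800 nt to under 1600 nt it was 0.554 and 0.529 per kb. In both replicates the highest values lay between 50 and 199 nt from the junction. Summits overlapped by a peak of the other replicate had the same shape, with 1.15 and 1.00 per kb from 50 to 99 nt and 0.255 and 0.351 per kb from 800 nt to under 1600 nt. So did genes other than C2H2 zinc finger genes, with 1.92 and 1.48 per kb from 50 to 99 nt.

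The bins near the junction also draw on the many exons with little counted CDS, so the same was measured in last exons with at least 1000 nt of it. There the density was 1.03 and 0.937 per kb from 50 to 99 nt and 0.993 and 1.26 per kb from 100 to 199 nt, against 0.566 and 0.482 per kb from 400 to 799 nt. The rise near the exon start was smaller but was present in both replicates. Internal exons of at least 1000 nt that were not the last showed it as well, with 1.14 and 1.10 per kb from 50 to 99 nt, 1.16 and 0.994 per kb from 100 to 199 nt, and 0.422 and 0.393 per kb from 400 to 799 nt, although from 800 nt to under 1600 nt they held 0.646 and 0.602 per kb. The pattern was therefore not particular to last exons. Reads that cross a splice junction were placed by the authors' aligner before peaks were called, and the part of that step in the pattern was not tested.

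**Figure D2:**
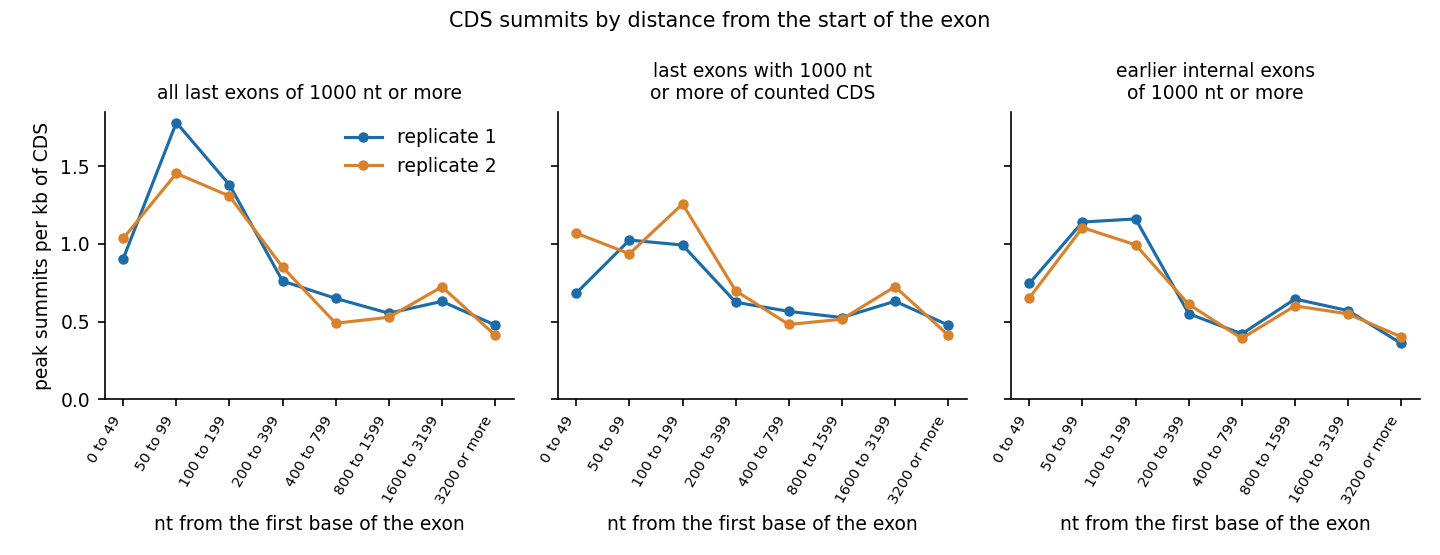
Peak summits per kb of CDS by distance from the first base of the exon, for last exons on mRNAs with several exons (left), the subset with at least 1000 nt of counted CDS (middle) and earlier internal exons of at least 1000 nt (right). Lines are the 2 replicates. In all 3 panels the values between 50 and 199 nt stood above those from 400 nt on.

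Distance from the stop codon gave a less steady picture. Over all long last exons of mRNAs with more than 1 exon, the density fell from 1.08 and 0.983 per kb at 200 to 399 nt upstream of the stop codon to 0.826 and 0.777 per kb at 400 to 799 nt and 0.673 and 0.627 per kb at 800 nt to under 1600 nt. In last exons with at least 1000 nt of counted CDS, the same bins held 0.699 and 0.589, 0.562 and 0.610, and 0.607 and 0.600 per kb, so that in these exons the fall with distance was not seen in both replicates. At the edge of the rule, 106 and 92 summits lay more than 200 and up to 250 nt before the stop codon and were counted, while 152 and 134 lay in the 50 nt next to these, nearer to the stop codon, and were not. The first 100 nt of exon length above the limit of 1000 nt supplied 10 and 2 peaks, and the 100 nt below it held 7 and 3 that were left out.

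How often a long last exon held a peak depended on how much CDS it carried. On mRNAs with a summit somewhere else, 533 of 1803 long last exons (29.6%) held at least 1 in replicate 1, and 501 of 1735 (28.9%) did in replicate 2. The share was 9.25% and 10.3% for exons with under 200 nt of counted CDS, 40.6% and 36.5% with 200 to 499 nt, 51.7% and 50.6% with 1000 to 1999 nt, and 65% and 73.2% with 2000 to 3999 nt. The density moved the other way, from 1.43 and 1.58 per kb in the shortest class to 0.582 and 0.590 per kb at 1000 to 1999 nt, and was then nearly level, at 0.605 and 0.613 per kb, at 2000 to 3999 nt.

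Agreement between the replicates was partial. In replicate 1, 455 last-exon CDS peaks (53.7%) were overlapped by at least 1 bp by a peak of replicate 2, beside 60.2% of all its peaks. In replicate 2, 523 (68.9%) were overlapped by a peak of replicate 1, beside 64.2% of all its peaks. The shares thus lay on opposite sides of the whole lists, but this depended on the overlap asked for. When the overlap had to cover 50% of both peaks, 24.2% and 27.4% met it, beside 39.0% and 40.8% of all peaks, so that last-exon CDS peaks were below the whole list in both replicates. Peaks over 1000 bp wide moved with this difference: 87 last-exon CDS peaks of replicate 2 were overlapped by such a wide peak of replicate 1, and 21 of replicate 1 by a wide peak of replicate 2. Their part in the difference was not tested.

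Wide peaks were overlapped more often than narrow ones. In replicate 1, 32.0% of last-exon CDS peaks of at most 100 bp were overlapped, against 47.7% of other peaks of that width, and above 100 and up to 200 bp the shares were 38.6% and 64.5%. Above 400 bp they were 82.8% and 86.3%. In replicate 2, the shares at most 100 bp were 50.5% and 51.4%, above 100 and up to 200 bp 56.3% and 69.4%, and above 400 bp 90.7% and 91.7%. At equal width, last-exon CDS peaks were thus overlapped no more often than the other peaks in any of the 4 width classes of either replicate.

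**Figure D3:**
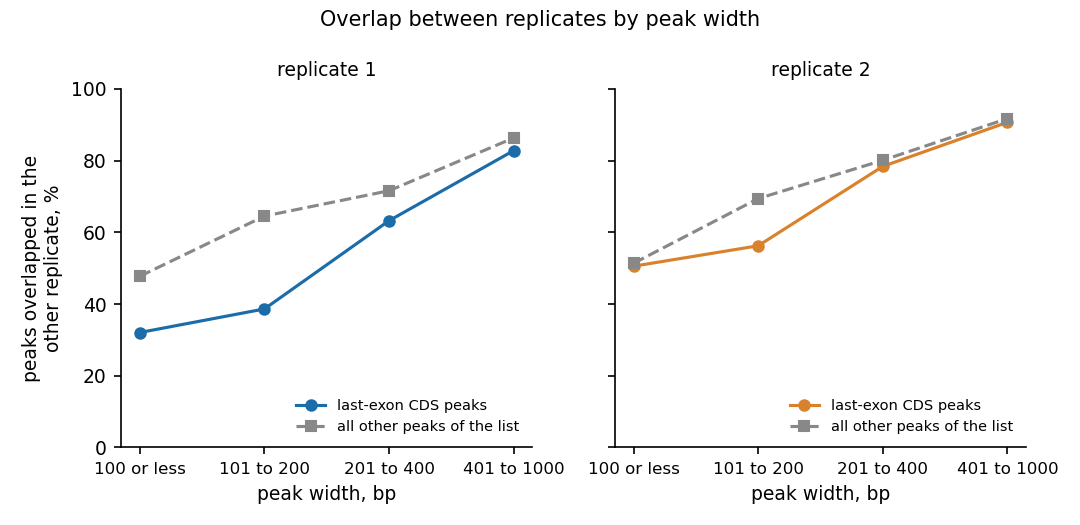
Share of peaks overlapped by a peak of the other replicate, by peak width, for last-exon CDS peaks (coloured) and all other peaks of the same list (grey). The coloured points lay below the grey ones in each class, by most above 100 and up to 200 bp, where they were 38.6% against 64.5% in replicate 1 and 56.3% against 69.4% in replicate 2.

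The summits themselves agreed less. A summit of the other replicate lay within 100 nt on the same mRNA for 32.2% and 38.9% of last-exon CDS peaks. For CDS peaks in earlier exons under 150 nt, where a summit has little room to move, the shares were 69.6% and 68.5%, and for earlier long exons they were 29.6% and 34.9%. There were 373 pairs of overlapping peaks in which both were last-exon CDS peaks, and their summits lay a median of 60 bp apart. Across these pairs, the log2 fold enrichments had a Pearson's r of 0.326 and a Spearman's rho of 0.305. The pairs are not independent, since several can lie in 1 exon, and the peak of one replicate can be in more than 1 pair. Only 4 pairs had a q of at most 0.05 in both replicates, those of PABPC3, DYRK1A, OR2A7 and SOS2. SOS2, an exchange factor that activates RAS, had folds of 3.91 (q = 0.0211) and 3.93 (q = 0.0294), from summits 194 and 171 nt into its last exon.

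**Figure D4:**
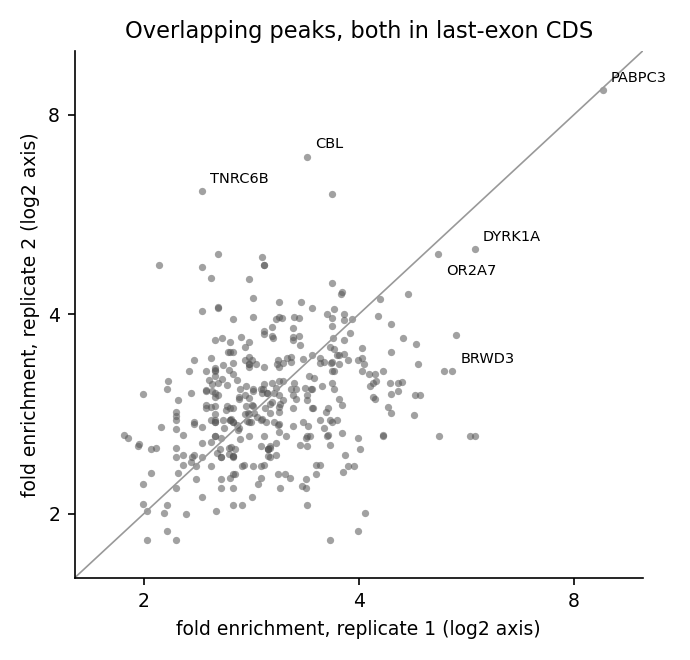
Fold enrichment in replicate 1 (x axis) and replicate 2 (y axis), both on log2 axes, of the 373 overlapping pairs in which both peaks were last-exon CDS peaks. The line marks equal values. PABPC3 stood alone at 8.78 and 8.72, and CBL and TNRC6B were high in replicate 2 only.

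Where the highest fold of a gene is given below for each replicate, the values need not come from the same place. Of 38 named genes with peaks in both replicates, the strongest peaks of the replicates did not overlap in 12.

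By gene, 628 genes had a last-exon CDS peak in replicate 1 and 561 in replicate 2. Of these, 352 had one in both, which is 56.1% of the genes of replicate 1 and 62.8% of those of replicate 2. A gene counted here wherever its peaks lay in the last exon, so these shares do not measure overlap. The like shares over genes of all peaks are not given here. Most genes had a single peak, 480 in replicate 1 and 434 in replicate 2. Genes with at least 3 numbered 44 and 42, and 17 had at least 3 in both.

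PABPC3, a single-exon gene for a poly(A)-binding protein, had the highest fold enrichment, 8.78 (q = 4.59e-10) in replicate 1 and 8.72 (q = 1.12e-09) in replicate 2, with summits 2 bp apart. It is a retrocopy of PABPC1, and 76.1% of the 31-nt stretches of its printed window occur word for word in transcripts of other genes. No other gene held more of these stretches than PABPC1. Reads of another gene may therefore have been placed on PABPC3, or the reverse, and the value is uncertain as a measure of PABPC3. OR2A7, which codes for an olfactory receptor, had 5.17 (q = 0.00356) and 4.93 (q = 0.00141), and 100% of such stretches in its window occur in OR2A4, so the same uncertainty holds there.

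Genes of signalling and RNA silencing followed. DYRK1A, a kinase of serine, threonine and tyrosine residues, had a fold of 5.81 (q = 0.000885) in replicate 1 and 5.01 (q = 0.0151) in replicate 2, both summits lying in the 418 nt of counted CDS of its last exon. For CBL, a ubiquitin ligase that acts on receptor tyrosine kinases, the values were 3.38 and 6.92 (q = 1 and 0.000129), from summits 40 and 25 nt into its last exon. HIPK1, a nuclear kinase, had 3.67 and 6.07 (q = 0.483 and 0.00163). TNRC6B, a partner of Argonaute in microRNA silencing, had 2.41 and 6.13 (q = 1 and 0.00207). In these last 3 genes a q of at most 0.05 was reached in replicate 2 only, and TNRC6B lay below the median fold in replicate 1.

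For transcription and chromatin, MEF2A, a MADS-box transcription factor, had folds of 4.69 and 4.29 (q = 0.0427 and 0.284). USF3, a transcription factor, had a highest fold of 5.47 in replicate 1 and 3.96 in replicate 2 (q = 0.00788 and 0.912), from 1 and 3 peaks with those summits 5351 bp apart, while the peak of replicate 2 that overlapped the first had 3.72, and BRWD3, a bromodomain protein, had 5.41 and 3.28 (q = 0.00356 and 1). RAPH1, an adaptor of actin filaments, had 5.26 and 3.28 (q = 0.00788 and 1). In all 4 of these genes a q of at most 0.05 was reached in replicate 1 only. Outside this ranking, and chosen after their values were seen, HIPK3 and R3HDM1 had folds of 6.12 and 6.02 in replicate 1 and were overlapped in replicate 2 by peaks of 6.65 and 6.40 that were 1007 and 1310 bp wide and so not counted.

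The genes with the most peaks had long last exons and low folds. APC, the scaffold of the complex that marks beta-catenin for destruction, had 8 peaks in replicate 1 and 9 in replicate 2 over 6371 nt of counted CDS, with no q below 0.588. The highest fold of a counted peak was 3.45 in both, but at summits 2071 bp apart. The peaks that overlapped them in the other replicate had 2.89 and 3.88, and the one with 3.88, in replicate 1, did not meet the rule. The counted summits of APC in replicate 1 ran from 519 to 4666 nt after the last junction. LCOR, a corepressor of nuclear receptors, had 7 and 6 peaks over 4139 nt, and 1 of them had its summits 797 and 796 nt after the junction in the 2 replicates. ZNF292, a zinc finger protein, had 4 and 7 peaks, MAST4, a kinase associated with microtubules, had 5 and 5, and EXPH5, a partner of RAB27, had 3 and 6. The highest folds of ZNF292, MAST4 and EXPH5 lay between 3.18 and 3.91, and those of LCOR were 4.15 and 3.66.

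Among genes with at least 1000 nt of counted CDS, the densest were ZNF148, with 3 peaks in each replicate (2.15 per kb), and ZNF160, with 4 in each (2.02 per kb). OTUD4, a deubiquitinase, had 2 in each (1.96 per kb), ZC3H6 had 3 and 2 (1.95 per kb), and ZNF286A had 2 in each (1.94 per kb). In ZC3H6, a CCCH zinc finger gene, the strongest summits lay 227 and 221 nt after the last junction with folds of 3.78 and 4.29. Reading frames held entirely in the last exon accounted for 152 of 847 peaks (17.9%) and 108 of 759 (14.2%). Beside PABPC3 and OR2A7, the strongest of that kind were ZBTB38, a methyl-CpG-binding zinc finger protein (3.79 and 4.32), ZNF488 (5.18 and 2.62) and MYADM, a membrane protein (3.82 and 3.65).

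Of the gene families looked at, C2H2 zinc finger genes were the largest. They held 199 of 847 last-exon CDS peaks in replicate 1 (23.5%) and 183 of 759 in replicate 2 (24.1%), in 137 and 118 genes. Of their long last exons on mRNAs with another summit, 107 of 214 (50%) and 96 of 203 (47.3%) held a peak, above the 29.6% and 28.9% of all genes, while per kb they held 0.677 and 0.647 summits, below the 0.801 and 0.766 of all genes. The share and the density thus went opposite ways, as they did for long last-exon CDS in general. The median fold was 2.78 and 2.62, and 3 and 2 peaks had a q of at most 0.05. Without these genes the density of all others was 0.849 and 0.814 per kb.

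The other lists were small, and the counts are given as they stand. Over all genes, 29.6% and 28.9% of long last exons on mRNAs with another summit held a peak. That share rises with the length of counted CDS, so the counts below are no measure of density. Of 29 chromatin regulators with another summit, 11 and 12 held a last-exon CDS peak, with median folds of 3.03 and 3.10. TET3, which oxidises methylated cytosine, reached 4.32 (q = 0.0225) and 3.28, and NSD1, a histone H3 lysine methyltransferase, 3.82 and 3.48. Of the genes named as examples of these small lists, only TET3 had a q of at most 0.05, and in replicate 1 alone. Of the genes of Notch, Wnt and insulin signalling, 8 of 17 and 11 of 18 held one, with 18 and 25 peaks. Among them MAML1, a Notch coactivator, had 4.42 and 3.15, and FZD5, a Wnt receptor, had 3 peaks in each replicate with highest folds of 3.49 and 3.69.

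Plakins and giant scaffold proteins held a peak in 5 of 9 and 3 of 8 genes. Per kb they held only 0.30 and 0.089 summits, against 0.801 and 0.766 over all genes. AHNAK2, with 16534 nt of counted CDS, had 6 peaks in replicate 1 and 1 in replicate 2, and 0 of them were overlapped. PPL, a desmosomal plakin, had 3 and 1. Of BTB and kelch genes, 14 of 37 and 14 of 36 held one, including ZBTB41 (4.02 and 2.50), and of tripartite motif and RING genes 8 of 28 and 12 of 28 did, including TRIM5 (3.10 and 4.17) and RNF26 (3.37 and 3.10). Leucine-rich repeat receptors held one in 5 of 15 and 5 of 16 genes, among them TLR4, the receptor for lipopolysaccharide (3.99 and 3.42), and LRRC8D, a subunit of a volume-regulated anion channel (3.66 and 3.38). G protein coupled receptors held one in 7 of 15 and 9 of 15, with LPAR5 at 3.02 and 3.71.

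Genome stability genes held one in 3 of 7 and 4 of 7, with BRIP1, a DNA helicase, at 3.44 and 3.47. The cadherin superfamily held one in 2 of 5 and 1 of 6, with FAT1 at 3.38 and 2.85, and transcription factors often coded by 1 exon in 1 of 2 and 0 of 3. Of 10 cell cycle and growth genes taken up in the study (CDC25A, CCNE2, CDC6, CDK4, CHEK2, E2F1, E2F3, WEE1, MYC and CCND1), 3 had counted last-exon CDS. Only MYC, a transcription factor, held a peak, in replicate 1, with a fold of 2.22 (q = 1).

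The share of peaks overlapped in the other replicate also differed among the lists, beside 53.7% and 68.9% of all last-exon CDS peaks. It was 94.4% of 18 and 88% of 25 peaks for Notch, Wnt and insulin signalling, and 64.7% of 17 and 81.2% of 16 for chromatin regulators. For BTB and kelch genes it was 51.9% of 27 and 77.3% of 22, and for tripartite motif genes 63.6% of 11 and 64.3% of 14. It was lower for C2H2 zinc finger genes, at 46.7% of 199 and 56.3% of 183, and for leucine-rich repeat receptors, at 30.8% of 13 and 44.4% of 9. For G protein coupled receptors it was 42.1% of 19 and 84.6% of 13, and for plakins and giant scaffold proteins 25% of 12 and 33.3% of 3. Most of these shares rest on few peaks, and several peaks can lie in 1 gene. The 18 and 25 peaks of the signalling list came from 8 and 11 genes. The lists were not compared at like peak width. The 3 and 4 peaks of genome stability genes were all overlapped, of the cadherin superfamily 0 of 2 peaks and 1 of 1 were, and the single peak of the 1-exon transcription factors was not.

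In C2H2 zinc finger genes, the repeated structure of the protein allows a finer look. A finger and the linker to the next one take 28 codons, or 84 nt, and the linker reads threonine, glycine, glutamate, lysine or arginine, proline. ZNF160 shows the layout, in the window of its strongest peak in replicate 1 (3.27), where linkers begin at bases 8 and 92, with 1 finger between them. Positions count from 1 at the 5′ end of the window. MAST4 is shown beside it for a sequence taken up later. Both were chosen after their values were seen, and capitals mark DRACH again.
ZNF160 (chr19:53069519-53069619, minus strand): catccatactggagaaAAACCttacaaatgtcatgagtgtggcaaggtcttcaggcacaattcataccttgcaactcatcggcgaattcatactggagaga
MAST4 (chr5:67166197-67166297, plus strand): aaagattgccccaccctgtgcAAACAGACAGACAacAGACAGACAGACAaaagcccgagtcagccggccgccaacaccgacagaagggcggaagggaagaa

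Within 84 nt of a linker start, 46 summits were found in replicate 1 and 40 in replicate 2. The stretch from 28 to 69 nt after the linker start, which codes for the body of the finger and was marked off after the values were seen, held 36 of the 46 (1.69 per kb) and 31 of the 40 (1.42 per kb). The rest of the repeat, which covers a like length, held 10 (0.473 per kb) and 9 (0.415 per kb). From 0 to 13 nt, over the linker, the density was 0.691 and 0.405 per kb, and from 14 to 27 nt, just past it, 0.277 and 0.270 per kb. Summits were thus sparse over the linkers and over both ends of the finger, and denser in its middle, in both replicates. The share of places whose surrounding 31 nt occur in a transcript of another gene moved with this in part. It was 33.8% and 31.7% over the first 14 nt of the repeat and 9.55% and 9.37% from 42 to 55 nt. It was much the same, however, from 28 to 41 nt (15.7% and 15.4%), where summits were dense at 1.94 and 1.62 per kb, and over the last 14 nt (14.9% and 14.3%), where they were sparse at 0.450 and 0.583 per kb. Read placement was not measured, and the part of shared sequence in the spacing of summits was not tested. Elsewhere in the same exons the density was 1.04 and 1.11 per kb. These values are above those of all C2H2 zinc finger genes because exons without a peak were not counted in them.

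**Figure D5:**
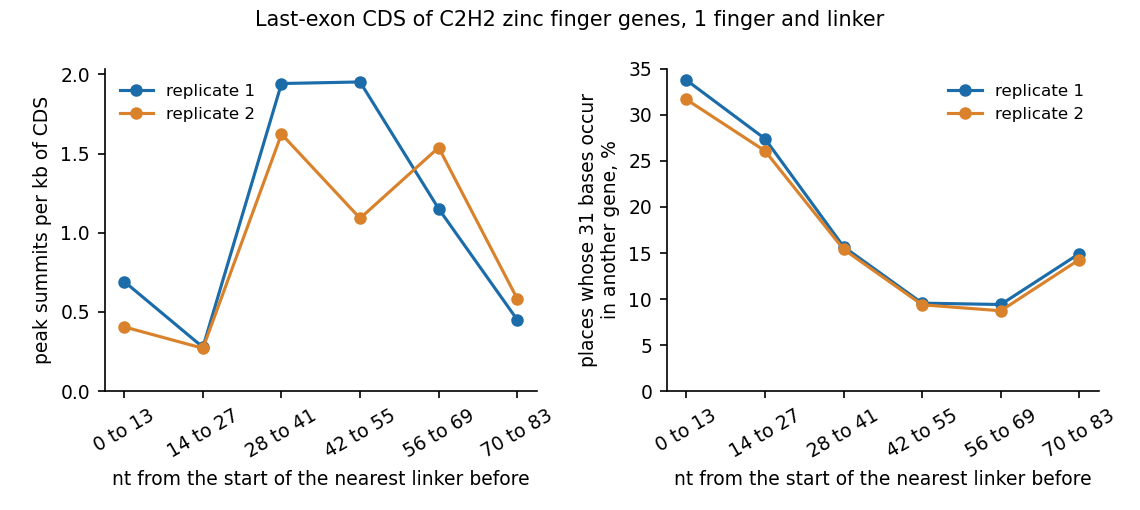
Last-exon CDS of C2H2 zinc finger genes with a peak, by distance from the start of the nearest upstream linker in bins of 14 nt. Left, peak summits per kb of CDS, from 46 and 40 summits. Right, the share of places whose surrounding 31 nt occur in another gene. Summits were sparse where shared sequence was most frequent, at 0 to 27 nt.

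The sequence within 50 nt of each summit was set beside windows of the same length from the same exons that held no peak of either replicate. On mRNAs with several exons, 70 and 76 summits lay under 50 nt from the last junction, and their windows reach into the exon before. Windows without a peak lay wholly in the counted CDS of last exons. Exons whose counted CDS was shorter than a window gave none of these. TGGAC was found in 11.1% of windows around last-exon CDS summits in replicate 1 and in 10.0% in replicate 2, a mean of 10.6% ± 0.767 (SD, n = 2). Windows without a peak held it in 12.7% and 12.3%, and all windows of this length in last-exon CDS in 13.3%. It was thus not more frequent at these summits in either replicate. In genes other than C2H2 zinc finger genes the shares were 12.8% against 16.4% and 11.5% against 16.2%. GGAC, which TGGAC contains, was found in 29.9% against 29.5% and in 31.4% against 28.9%, with 33.0% in all windows, and after the weighting for GC content given below it was lower at summits in both. DRACH, which overlaps both, was found in 85.0% against 85.4% and 86.4% against 85.8%, with 82.0% in all windows.

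Windows around summits were richer in G and C than those without a peak, with medians of 51.5% against 47.5% in replicate 1 and 49.5% against 45.5% in replicate 2, while the median over all last-exon CDS was 52.5%. Within gene classes the gap was smaller. In genes other than C2H2 zinc finger genes the medians were 53.5% against 52.5% and 52.0% against 50.5%. In C2H2 zinc finger genes they were 43.6% against 41.6% and 42.6% against 42.6%. The latter genes supplied 897 of 2457 and 772 of 2059 windows without a peak, but 199 of 847 and 183 of 759 summit windows. The ranking of sequences of 5 bases below was not split by gene class. When windows without a peak were weighted to the GC content of the summit windows, they held TGGAC in 13.6% and 13.3% and GGAC in 31.9% and 31.7%. Of all 886 sequences of 5 bases found in at least 3% of windows without a peak, the one with the highest mean ratio was CAGAC. It was in 14.3% of summit windows against 8.38% of windows without a peak in replicate 1 and in 15.3% against 7.67% in replicate 2, with 11.2% in all windows of last-exon CDS. With GC content weighted, the windows without a peak held it in 8.68% and 8.21%. CAGAC followed by a base other than G contains a DRACH match. The MAST4 window holds 3 CAGAC matches that do not overlap. Its peak had a fold of 3.18 (q = 0.435) in replicate 2 and was not overlapped by a peak of replicate 1.

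The sequences ranked next were rich in C. Among them, ACCCC was found in 13.7% of summit windows in both replicates, against 8.51% and 7.33% of windows without a peak and 11.5% of all windows, and 9.82% and 8.53% with GC content weighted. CACTC, a CA-rich sequence, was found in 10.6% against 7.49% and in 11.1% against 9.62%, with 9.21% in all windows. With GC content weighted, the windows without a peak held it in 7.77% and 10.8%, so that little difference was left in replicate 2. The lowest ratios belonged to sequences rich in A and T, with TTATA in 3.31% against 5.90% and in 3.56% against 6.80%. These sequences were picked out after their values were seen, the summits of the 2 replicates share exons, and a match says only that the letters are there.

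Part of the last-exon CDS is shared with close relatives in the genome. Summit windows with at least 1 stretch of 31 nt that also occurs in a transcript of a gene elsewhere made up 13.0% in replicate 1 and 16.2% in replicate 2, against 18.0% and 18.7% of windows without a peak in the same exons. Summit windows for which every such stretch occurs elsewhere numbered 27 (3.19%) and 21 (2.77%), against 5.05% and 4.86% of windows without a peak. Among these wholly shared summit windows are those of OR2A7, CDC14C, FUT5, TUBA1A, ZNF286A and members of the NPIPB, CTAGE, AGAP and F8A families. The values of these genes, and of OTUD4 with its partly shared windows, are uncertain for the same reason as that of PABPC3. The peak lists carry no strand, and at 37 summits in each replicate an exon of another gene was annotated, on the opposite strand in 20 and 21 cases, so that the source of the RNA at those summits cannot be told apart.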

How the data were processed

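The analysis used 1 peak list per IGF2BP3 RIP replicate, called by the authors per sample. Methods of the study name Tophat2 and MACS2 with default settings, whereas the submitters' processing notes name fastp, HISAT2, MACS2 and hg38. Which control library the caller used and the read depth are not given in the sources used here, so no counting interval could be given. The deposited fold enrichment is a ratio of RIP signal to local background at the summit, and its −log10 p and −log10 q values were taken as deposited by the authors. The deposited summit offset was added to the peak start. Summits were placed on MANE Select mRNAs of GENCODE release 44 without regard to strand. Named genes were the 10 with the highest mean fold among genes with a last-exon CDS peak in both replicates, the 5 with the most peaks, the 5 densest with at least 1000 nt of counted CDS, the 5 strongest with the whole CDS in 1 exon, 2 per gene list, and 10 cell cycle and growth genes of the study. Of these, 1 gene is not reported here. Lists were C2H2 zinc finger, chromatin, plakin, cadherin, signalling, 1-exon transcription factor, BTB and kelch, tripartite motif, leucine-rich repeat, G protein coupled receptor and genome stability genes. Members and lists were chosen with earlier results of these data known. Windows spanned 50 nt on either side of the summit. Assignment of summits was tested on simulated data. Software was Biopython 1.88, matplotlib 3.10.9, scipy 1.17.1, pandas 2.3.3 and numpy 2.4.6 under Python 3.11.15.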

Additional observations from a re-analysis of the deposited data

How the results depend on the processing

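The alternatives, 13 in all, were run on 6 results (number of peaks, overlap, median fold, share with q of at most 0.05, density and TGGAC), each under 8 to 11 of them. The densities by distance and within genes, the linkers and the sequences of 5 bases were not recomputed. This gave 57 values, of which 25 moved by less than the spread between replicates (by less than 1.5 times for the number of peaks) and 32 moved by more. With peaks of both lists limited to a fold of at least 5, the number of last-exon CDS peaks was 11.5 per replicate, 32.1% were overlapped (all peaks 18.2% and 23.9%), their median fold was 5.99, 100% had a q of at most 0.05, the density was 0.0111 per kb and 6.67% of windows held TGGAC, from 13.3% of 15 windows in replicate 1 and 0 of 8 in replicate 2. With a q of at most 0.05, the values were 26.5 peaks, 22.8% overlapped (all peaks 21.4% and 29.2%), a median fold of 4.86, 0.0257 per kb and 8.63% with TGGAC (12.5% and 4.76%). In both settings the mRNAs counted for the density stayed those of the full lists. With 100 nt from the stop codon, the median fold was 2.85, the density 0.896 per kb and TGGAC in 11.6%. With 400 nt, they were 2.83, 0.703 per kb and 9.53%, and 2.01% had a q of at most 0.05. A last exon of at least 2000 nt gave a median fold of 2.84 (2.843 before rounding). With the midpoint, the median fold was 2.82, the density 0.736 per kb and the share with q of at most 0.05 was 2.09%. With a width of at most 300 bp, these were 2.72, 0.525 per kb and 0.922%. Without C2H2 zinc finger genes, the median fold was 2.88, the density 0.832 per kb and TGGAC in 12.1%. An overlap of 50% of both peaks was met by 25.8% (all peaks 39.0% and 40.8%), and a summit of the other replicate within 100 nt by 35.5%. TGGAC was in 5.18% of windows reaching 25 nt and 21.6% of windows reaching 100 nt to either side of the summit. Ensembl canonical transcripts moved none of the 6 results by more than the spread. Leaving out each replicate gave 759 to 847 peaks, 53.7% to 68.9% overlapped, median folds of 2.838 to 2.84, 2.77% to 3.78% with a q of at most 0.05, 0.766 to 0.801 per kb and TGGAC in 10.0% to 11.1%. The cause of these shifts was not tested. The spread of the median fold over the replicates was 0.00134, so small shifts pass it.

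No paired analysis was possible because the results come from no test and only the RIP replicates had peak lists. Without read depth, a last exon with no peak cannot be read as unbound.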
